A study of Mus musculus with 7 samples.

Results

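The interferon-inducible GTPases described here are 10 genes of 2 related families, chosen by name out of 23038 genes in the deposited table: the immunity-related GTPases (IRGs) Igtp, Irgm1, Irgm2 and Iigp1, and the guanylate-binding proteins (GBPs) Gbp2, Gbp3, Gbp4, Gbp6, Gbp7 and Gbp9. The choice was made with the control and mutant values of this table known, so those values are given as a description and no test is made on them. Transcripts were read by Smart-seq2, which copies whole mRNAs from few cells, in haematopoietic stem cells (HSCs) sorted from adult C57BL/6 bone marrow by the absence of lineage markers and CD48 and the presence of Sca1, cKit and CD150. There were 7 libraries of 150 cells: 3 from Cre-negative littermates and 4 from Mx1-cre; Mettl3fl/fl mice, which lose Mettl3, the catalytic subunit of the m6A methyltransferase of mRNA. All animals had 5 intraperitoneal doses of pIpC, 10 µg each, which mimics viral double-stranded RNA and raises interferon, and were killed 10 days after the last. In the mutants interferon then switches on Cre through the Mx1 promoter, in HSCs and in other cells that respond to interferon. The Cre transgene was present in the mutant group only. Neither the sex of the animals nor whether the controls carry floxed alleles is stated in the labels.

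The deposited values are RPKM, reads scaled to gene length and library size, with 1 value for each gene and group. No value of a single animal was used here, so no spread, standard error or p-value can be given, no difference has a replicate check, and neighbouring levels cannot be ordered beyond their error. Fewer transcripts per cell and fewer transcribing cells cannot be told apart in such bulk values.

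IRG and GBP proteins are large GTPases that are made after interferon, above all interferon gamma, binds its receptor and signals to the nucleus. They assemble on the membrane of vacuoles that hold bacteria or parasites and break it, a form of cell-autonomous immunity. Within the IRGs, Irgm1, Irgm2 and Igtp (Irgm3) sit on the cell's own membranes and hold the effector IRGs inactive there, whereas Iigp1 (Irga6) is an effector that loads onto the vacuole. GBPs bind membranes, some by a prenyl anchor. In HSCs, Irgm1 is known from knockout mice as a gene needed to restrain proliferation under interferon.

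Promoter sequences are shown first and were searched for the letters of 2 motifs known as interferon-response elements. RefSeq windows on GRCm38.p6 ran from 250 bases before to 50 bases after each annotated start. They were used for 6 of the 10 members, not for Iigp1, Gbp4, Gbp6 or Gbp9, and Gbp3 had 2 such windows. Each was searched on both strands for GAAA repeated after any 2 bases, the core of the interferon-stimulated response element (ISRE), and for TTCNNNGAA, the gamma-activated site (GAS). An ISRE core was found in 6 of the 7 member windows and a GAS in 3, whereas 3.44% and 8.30% of all 32851 windows of the same length held them. The window without either was the downstream one of Gbp3. Of 11 windows of IRG and GBP genes outside the list, 7 held an ISRE core and 5 a GAS. The other 4, those of Ifi47, Irgq, Gm5431 and 9930111J21Rik2, held neither. In Igtp and Irgm2 the GAS and the ISRE core lay side by side, 2 bases apart. This arrangement, a GAS, any 2 bases and an ISRE core, was noticed in the sequences and then searched for in all windows. It occurred in 5 of 32851 (0.0152%), a count that includes the windows in which it was noticed. All 5 belonged to IRG genes of chromosome 11, namely Igtp, Irgm2, the near-identical effector genes Tgtp1 and Tgtp2 (Irgb6), and Gm12185. The windows of Igtp and Irgm2 share long stretches around the block, as do those of Tgtp1, Tgtp2 and Gm12185. The 5 are therefore related copies and not independent occurrences. The blocks are shown 5′ to 3′ with both motifs in capitals.
Igtp: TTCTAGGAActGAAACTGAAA
Irgm2: TTCCAGGAActGAAACTGAAA
Tgtp1: TTCCAGGAAtcGAAACTGAAA
Tgtp2: TTCCAGGAAtcGAAACCGAAA
Gm12185: TTCCAGGAAtaGAAAGTGAAA
Igtp and Irgm2 were 2.03-fold and 2.26-fold higher in the mutant mean and Tgtp1 and Tgtp2 1.48-fold and 1.62-fold. Gm12185 was at 1.76 RPKM in control HSCs and 1.59 RPKM in mutant HSCs. A match describes letters and not a bound site, and no binding was measured.

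The full windows of 4 members are shown because they set members that differed about 2-fold (Igtp, Irgm2, Gbp3) beside 1 that did not (Gbp7). Capitals mark the matches, and the 2 matches of Gbp3 overlap. The windows, all on the plus strand, are chr11:58199306-58199605 for Igtp, chr11:58214727-58215026 for Irgm2, chr3:142559794-142560093 for the upstream start of Gbp3 and chr3:142530086-142530385 for Gbp7.
Igtp: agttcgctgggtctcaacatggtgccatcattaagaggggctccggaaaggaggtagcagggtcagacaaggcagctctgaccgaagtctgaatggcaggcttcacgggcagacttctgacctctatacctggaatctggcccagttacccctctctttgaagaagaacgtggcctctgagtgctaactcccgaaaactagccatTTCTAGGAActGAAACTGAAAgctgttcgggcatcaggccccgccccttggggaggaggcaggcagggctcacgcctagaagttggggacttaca
Irgm2: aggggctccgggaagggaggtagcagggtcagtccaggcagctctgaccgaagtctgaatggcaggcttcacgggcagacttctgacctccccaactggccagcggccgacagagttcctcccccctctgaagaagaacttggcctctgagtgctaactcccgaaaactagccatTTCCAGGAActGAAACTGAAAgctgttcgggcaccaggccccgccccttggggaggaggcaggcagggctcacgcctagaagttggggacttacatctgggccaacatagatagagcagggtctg
Gbp3: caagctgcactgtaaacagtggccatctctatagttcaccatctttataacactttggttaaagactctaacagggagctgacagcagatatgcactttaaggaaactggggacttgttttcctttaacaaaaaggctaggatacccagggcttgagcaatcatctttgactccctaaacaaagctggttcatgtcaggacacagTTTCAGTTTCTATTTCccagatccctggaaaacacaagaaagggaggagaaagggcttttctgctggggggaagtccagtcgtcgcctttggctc
Gbp7: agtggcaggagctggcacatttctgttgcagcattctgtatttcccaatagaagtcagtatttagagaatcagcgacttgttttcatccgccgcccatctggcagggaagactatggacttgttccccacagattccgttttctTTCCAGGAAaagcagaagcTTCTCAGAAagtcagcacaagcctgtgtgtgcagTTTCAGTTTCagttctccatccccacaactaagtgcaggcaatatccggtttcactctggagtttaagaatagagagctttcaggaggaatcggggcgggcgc
The window of Gbp7 held an ISRE core and 2 GAS matches, and that of Gbp3 held 2 overlapping ISRE cores. Gbp7 was 1.22-fold and Gbp3 2.26-fold higher in the mutant mean. A link between matches and ratios was not tested. Irgm1 held 2 overlapping ISRE cores and Gbp2 a single one, both without a GAS.

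**Figure D1:**
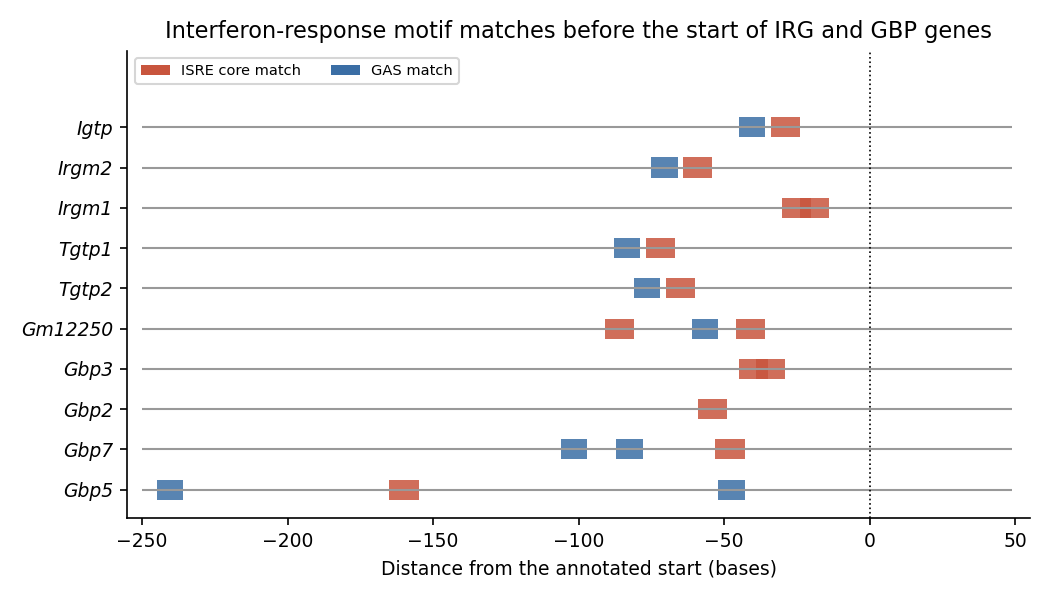
Matches of the ISRE core (red) and GAS (blue) on either strand in the promoter windows of 5 IRG genes, Gm12250 (Irgb10) and 4 GBP genes; the x axis is the distance from the annotated start in bases. Gbp3 is shown by its upstream window. Family genes without a match, such as Ifi47, are not drawn, nor are all genes with one, such as Gm12185. In Igtp, Irgm2, Tgtp1 and Tgtp2 a GAS is followed by an ISRE core 2 bases downstream, within 100 bases of the start.

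Of the 10 members, 9 were higher in the mutant mean and Gbp4 was lower, where 52.6% of the 14539 genes with reads were higher and 47.4% lower. On the scale log2((mutant + 1) / (control + 1)), which understates the change of low genes, 4 members were at least 2-fold higher, Iigp1, Gbp3, Irgm2 and Igtp, and none was at least 2-fold lower. By this rule 3.67% of all genes with reads were 2-fold higher or more and 3.47% were 2-fold lower or more. The 2-fold rule is one of size and involves no test. The median log2 difference of the members was 0.80, beside 0.02 over all genes with reads. Since the members were picked with these values in view, the counts say nothing beyond the members themselves. Macrophage and monocyte markers, at most 1.87 RPKM in either group, were also higher in 8 of the 9 with reads. Only 2 of these reached 1 RPKM in a group, 1 of them higher and 1 lower. Their part in the members' differences was not tested.

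Igtp and Irgm1, both regulatory IRGs, had the largest differences in RPKM of the 10 members. Igtp (NCBI Gene 16145, chr11:58199556-58207592, GRCm38.p6) was the most abundant member, at 98.9 RPKM in control HSCs and 201 RPKM in mutant HSCs, a ratio of 2.03 and a log2 difference of 1.01. Its control level was above that of 91.1% of the genes with reads. With the mutant column divided by the median ratio of all genes the log2 difference was 0.99, just under 2-fold. Irgm1 (NCBI Gene 15944, chr11:48865245-48871420) was at 64.8 RPKM in control HSCs and 124 RPKM in mutant HSCs, 1.92-fold higher. Irgm2 (NCBI Gene 54396, chr11:58214977-58222783), the third regulatory IRG, was far lower in level, at 8.08 and 18.3 RPKM, and 2.26-fold higher. The 3 genes thus had ratios between 1.92 and 2.26 although their control levels spanned 8.08 to 98.9 RPKM.

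Iigp1 (NCBI Gene 60440, on chromosome 18), the effector IRG, had the largest ratio of the 10, 2.66, at 11.3 RPKM in control HSCs and 29.96 RPKM in mutant HSCs. All 4 IRG members were therefore higher in the mutant mean, with a median log2 difference of 1.05, and their summed RPKM was 183 in controls and 373 in mutants, a ratio of 2.04.

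The GBP members were less uniform, with a median log2 difference of 0.35 over 6 genes and a ratio of summed RPKM of 1.39. Gbp3 (NCBI Gene 55932, chr3:142560016-142573213), which is recruited to the vacuole of Toxoplasma gondii, was at 17.9 RPKM in control HSCs and 40.4 RPKM in mutant HSCs, 2.26-fold higher. The other members on chromosome 3 differed much less, though Gbp5 of the same cluster, outside the list, was 2.59-fold higher. Gbp2 (NCBI Gene 14469, chr3:142620663-142638008), a prenylated GBP needed for control of that parasite, was at 73.97 and 93.7 RPKM, a ratio of 1.27. Gbp7 (NCBI Gene 229900, chr3:142530336-142550151), also found at such vacuoles, was at 35.98 and 43.8 RPKM, a ratio of 1.22.

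The chromosome 5 members were all low. Gbp9 (NCBI Gene 236573, chr5:105076464-105110357) was at 3.62 RPKM in control HSCs and 4.97 RPKM in mutant HSCs, 1.37-fold higher. Gbp4 (NCBI Gene 17472, chr5:105115767-105139586), described as a brake on the interferon factor IRF7, was at 3.30 and 3.06 RPKM, a ratio of 0.927 and the only one of the 10 below 1. Gbp6 (NCBI Gene 100702, chr5:105270702-105295871) was the lowest member, at 1.45 and 2.93 RPKM. Its ratio was 2.02, yet on the pseudocount scale its log2 difference was 0.68, so that it counts as 2-fold higher only without a pseudocount. By that rule 5 of the 10 members and 13.6% of all genes with reads were at least 2-fold higher.

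**Figure D2:**
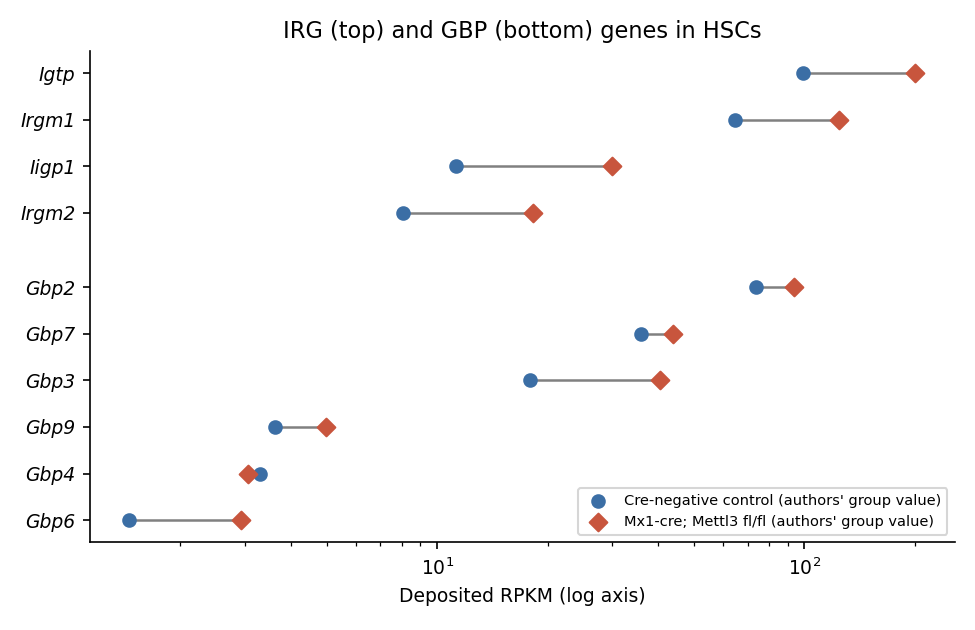
Deposited RPKM of the 10 members in Cre-negative controls (circles) and Mx1-cre; Mettl3fl/fl mutants (diamonds), 1 group value each, on a log axis; a line joins the 2 values of a gene, and no error can be drawn. The 4 IRG genes, Gbp3 and Gbp6 have long lines, with ratios from 1.92 to 2.66, Gbp2, Gbp7 and Gbp9 have short lines, and Gbp4 runs the other way.

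The order of the members by RPKM was nearly the same in both groups. In controls it ran Igtp, Gbp2, Irgm1, Gbp7, Gbp3, Iigp1, Irgm2, Gbp9, Gbp4 and Gbp6, and in mutants only Gbp2 and Irgm1 changed places. Igtp, Gbp2 and Irgm1 together made up 74.4% of the members' summed RPKM in controls and 74.5% in mutants. The highest member was 68.1 times the lowest in controls and 68.4 times in mutants.

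The reads behind a value can be judged from the lowest values of the table. In 8499 genes the mutant/control ratio was 0.841, the ratio of 2 small offsets, which for 1 kb of gene are 0.0414 RPKM (control) and 0.0349 RPKM (mutant). If the offset stands for 1 read in each library, Gbp6, with a single annotated transcript of 2604 bases, corresponds to 91.3 reads per library in controls and 219 in mutants. The other members lie above this, except that Gbp4 would come to 56.5 and 62.3 reads on its shortest annotated coding transcript and 362 and 399 on its longest. The variation between animals was not measurable.

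Near-identical copies limit a single member. Of the 100-base windows of the longest Gbp6 transcript, 44.2% occurred unaltered in Gbp10, whose level was 0.416 RPKM in control HSCs and 0.353 RPKM in mutant HSCs, so reads of Gbp6 may have been divided between the 2 genes. In each of the other 9 members under 10% of windows were shared with any other gene of the table, 5.67% in the highest case, Igtp with Irgm2. Without Gbp6 the median log2 difference of the members was 0.93.

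Because the deleted enzyme is the m6A writer, the letters GGACT, a frequent context of m6A, were counted in the longest coding transcript of each member. They ran from 0.661 per kb in Gbp4 to 3.10 per kb in Irgm1, which holds 7 in 2259 bases, beside a median of 1.05 and an upper quartile of 1.53 per kb over 12257 coding genes with reads. Irgm1, Igtp and Gbp3 were above that quartile, and Iigp1, with the largest ratio, was at 0.961 per kb. Methylation was not measured.

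**Figure D3:**
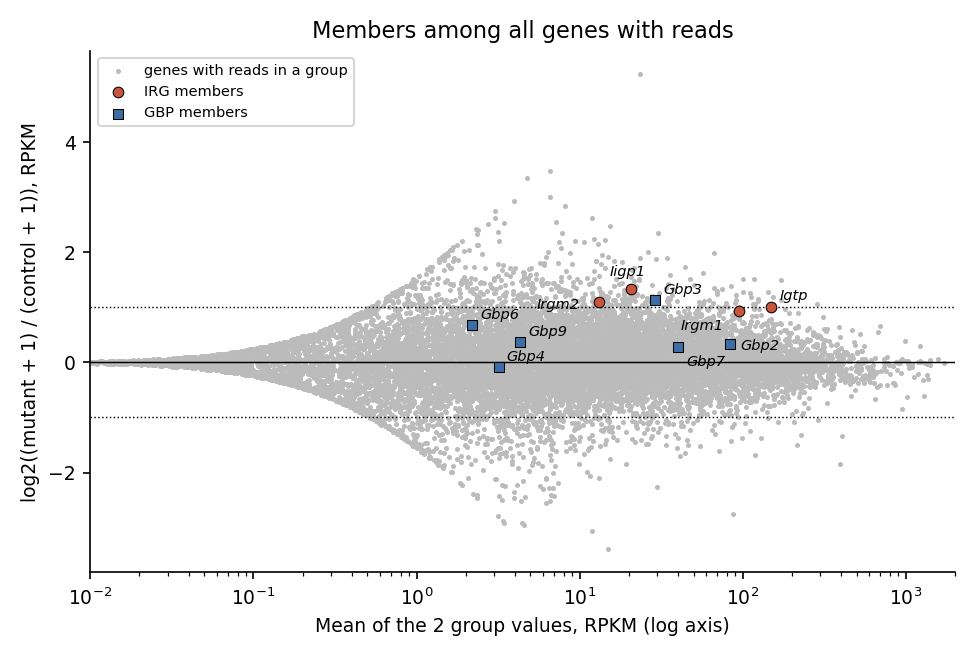
Log2 difference between the mutant and control group values (pseudocount 1 RPKM) against the mean of both in RPKM (log axis) for genes with reads; IRG members are red circles, GBP members blue squares, and dotted lines mark 2-fold. Igtp, Irgm2, Iigp1 and Gbp3 lie above the upper dotted line, Irgm1 just under it, and Gbp2, Gbp7, Gbp9 and Gbp4 within the bulk of genes of their level.

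The listed members are not the whole of the 2 families. A list of 29 further IRG and GBP symbols had 18 genes in the table, all with reads in a group and 6 of them under 1 RPKM in both. Of these 18, the mutant value was higher in 9 and lower in 9, 2 were at least 2-fold higher and none 2-fold lower, and the median log2 difference was 0.00. Among the 12 with at least 1 RPKM in a group, a level that all 10 members reach, 7 were higher and the median was 0.36. Over all 28 genes of the families, 18 were higher, 6 were at least 2-fold higher and the median was 0.31, so the median of 0.80 belongs to the members as listed. Of all genes with reads 52.6% were higher and 3.67% at least 2-fold higher.

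Among the effector IRGs outside the list, Ifi47 (Irgd) was abundant, at 91.8 RPKM in control HSCs and 145 RPKM in mutant HSCs, 1.58-fold higher. Gm12250, which encodes Irgb10, an effector that attacks bacterial membranes together with GBPs, was at 16.5 and 32.2 RPKM, 1.95-fold higher. Tgtp1 was at 7.22 and 10.7 RPKM and Tgtp2 at 13.9 and 22.4 RPKM, but these share 80.0% and 80.4% of their 100-base windows with each other and should be read together. F830016B08Rik, a neighbour of Iigp1 on chromosome 18, was at 2.06 and 5.70 RPKM, the largest log2 difference of the other genes (1.13), whereas its neighbours Gm4951 (19.2 and 22.2 RPKM) and Gm4841 (3.09 and 3.06 RPKM) differed little. On the lower side, 9930111J21Rik1 was at 1.02 and 0.303 RPKM and the IRG-related Irgq at 1.83 and 0.906 RPKM. Without a pseudocount both were past 2-fold lower, with log2 differences of -1.75 and -1.02. Of the 100-base windows of 9930111J21Rik1, 63.0% occurred in 9930111J21Rik2, so its reads may have been divided between the 2 genes.

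A pair of GBP genes outside the list went opposite ways. Gbp5, which promotes inflammasome assembly, was at 1.74 RPKM in control HSCs and 4.51 RPKM in mutant HSCs, 2.59-fold higher. Gbp8 was at 13.6 and 7.07 RPKM, 1.93-fold lower, with a log2 difference of -0.86. Gbp1 (Gbp2b in RefSeq) had no reads above the offset in controls and reached 0.150 RPKM in mutants.

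Arranged by position, the 5 GBP genes of chromosome 3, within 141 kb, were all higher in the mutant mean, and of the 6 of chromosome 5, within 334 kb, only Gbp6 and Gbp9 were. Gbp5 and Gbp3, with ratios of 2.59 and 2.26, flank Gbp7, at 1.22. Gm12250, Igtp and Irgm2 lie within 38.9 kb of chromosome 11 and had ratios of 1.95, 2.03 and 2.26. Irgm1 and Ifi47 bound a second stretch of 232 kb on the same chromosome, in which both of these, Tgtp1, Tgtp2 and 9930111J21Rik2 were higher and Gm12185, Gm5431 and 9930111J21Rik1 lower. The ratios of Gm12185 and Gm5431 were 0.902 and 0.898, and 9930111J21Rik2 was at 0.0135 and 0.0145 RPKM.

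**Figure D4:**
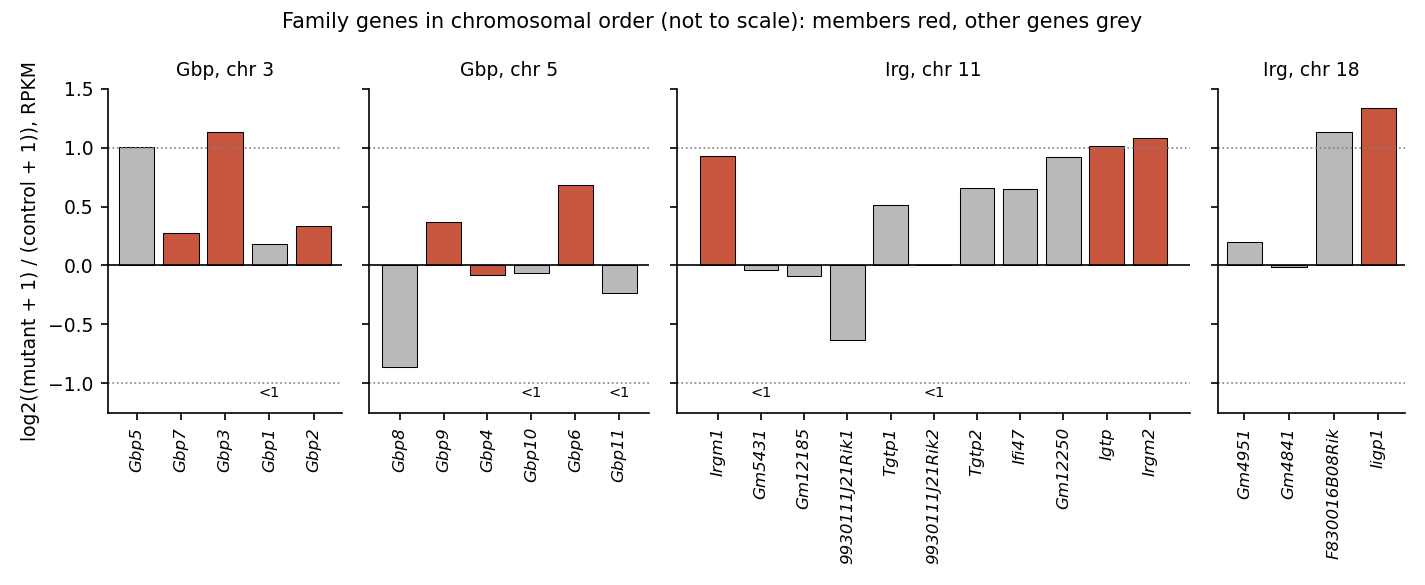
Log2 difference (pseudocount 1 RPKM) of the IRG and GBP genes in their order along chromosomes 3, 5, 11 and 18, with members in red, other genes in grey, dotted lines at 2-fold and "<1" under genes below 1 RPKM in both groups. The bars of Gm12250, Igtp and Irgm2 are alike in height. Neighbouring GBP genes differ, with Gbp7 at 0.28 and Gbp3 at 1.13 on chromosome 3. On chromosome 5, Gbp8 is at -0.86 and Gbp9 at 0.37.

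Of the other interferon-inducible GTPases, 3 had reads, 2 of them lower and 1 higher in mutants. Mx1 was at 2.02 RPKM in control HSCs and 1.74 RPKM in mutant HSCs and Mx2 at 4.58 and 3.84 RPKM, both annotated by RefSeq as transcribed pseudogenes in this strain, and the very large GTPase gene Gvin1 was at 0.0313 and 0.0427 RPKM. Dynamins and atlastins are GTPases of the same wider superfamily that shape the cell's own membranes. They were higher in 7 of the 9 genes that had reads, beside 52.6% of all genes with reads. Their median log2 difference was 0.47, with none 2-fold apart at a pseudocount of 1 RPKM. Atl1 had the highest value, at 0.0247 and 1.02 RPKM, which is past 2-fold with a pseudocount of 0.1 RPKM (log2 difference 3.17), and Atl3 the lowest, at 2.08 and 1.61 RPKM.

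Upstream of these genes, interferon receptor, JAK, STAT and IRF genes were higher in 14 of the 17 that had reads. The share over all genes with reads was 52.6%. Their median log2 difference was 0.42. The highest was Irf7, which amplifies type I interferon signalling, at 27.0 and 73.3 RPKM, and the lowest Irf2, a repressor of interferon genes, at 37.0 and 27.6 RPKM. Of 16 interferon genes in the table, 14 were at the offset in both groups, Ifng among them, and Ifnb1, at 0.0538 and 0.424 RPKM, and Ifnz, at 0.180 and 0.245 RPKM, were the exceptions.

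Further interferon targets were described in the same way, where 52.6% of all genes with reads were higher and 3.67% at least 2-fold higher. Genes known for type I interferon were higher in 18 of 22, with a median log2 difference of 0.40 and 1 at least 2-fold higher, Oasl1 at 4.85 and 12.6 RPKM, whereas Trim30a was at 9.82 and 6.82 RPKM. Other interferon-gamma targets were higher in 14 of 19 (median 0.13), 3 of them at least 2-fold higher. Cxcl10, a T cell chemokine, was at 1.22 and 15.0 RPKM, a log2 difference of 2.85 that exceeds that of every member, and Ciita, the activator of MHC class II genes, at 1.04 and 0.608 RPKM. The other two past 2-fold, named after their values were seen, were Ido1, which breaks down tryptophan, at 0.0267 and 1.45 RPKM and the chemokine gene Cxcl9 at 0.0143 and 1.03 RPKM.

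**Figure D5:**
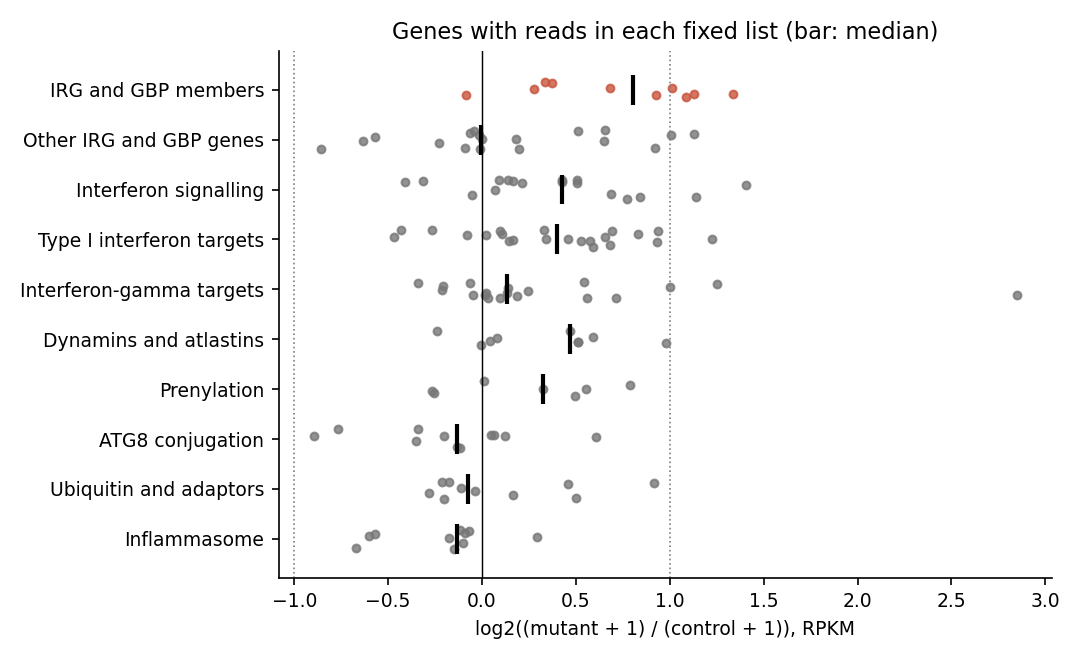
Log2 difference (pseudocount 1 RPKM) of each gene with reads in 10 fixed lists, 1 point a gene with vertical jitter only, black bars for medians and dotted lines at 2-fold. The members' median is 0.80, that of interferon signalling genes 0.42 and that of type I interferon targets 0.40, while ATG8 conjugation and inflammasome genes have medians of -0.13.

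The labels were checked against markers. Mettl3 was at 49.8 RPKM in control HSCs and 9.60 RPKM in mutant HSCs. All 14 genes of the HSC list had reads; 6 were higher and 8 lower in mutants, with a median log2 difference of -0.12. Cd34 had the highest log2 difference, at 113 and 136 RPKM, while Kit, at 67.4 and 39.9 RPKM, and Hlf, at 19.3 and 11.9 RPKM, both named after their values were seen, were lower. Macrophages and lymphocytes also express IRG and GBP genes. Macrophage and monocyte markers were at the offset in 4 of 13 genes, Csf1r, Ccr2, Marco and Siglec1. The 13 summed to 2.97 RPKM in control HSCs and 5.28 RPKM in mutant HSCs, a higher sum in mutants, as for the members. Only 2 of them reached 1 RPKM in a group, C1qa and C1qb, and these went opposite ways. Of the 9 with reads, 8 were higher in mutants, and C1qb was lower, at 1.87 and 0.904 RPKM. The 8 include C1qa at 0.212 and 1.38 RPKM, Cd14 at 0.0277 and 0.790 RPKM and Cd5l at 0.0203 and 0.513 RPKM. They also include Ly6c2, which was nearly equal at 0.0517 and 0.0518 RPKM. Cd14 and Cd5l were named after their values were seen. Of 12 T and natural killer cell markers 7 were at the offset, among them Cd3e, Cd8a, Prf1 and Gzma, and the sums of 128 and 111 RPKM were nearly all Nkg7 (124 and 62.3 RPKM), besides Ccl5 at 0.270 and 46.6 RPKM. B cell markers summed to 137 and 139 RPKM, mostly Cd79b, with Cd79a, Ms4a1 and Pax5 at the offset, Sdc1 at 3.14 and 5.80 RPKM and Igj at 1.59 and 0.0166 RPKM. Neutrophil markers summed to 14.7 and 5.92 RPKM, with 4 of 8 at the offset, S100a8 at 6.13 and 5.09 RPKM and Camp at 6.37 and 0.562 RPKM. Endothelial and stromal markers summed to 58.0 and 71.6 RPKM, mostly Pecam1 at 21.98 and 50.1 RPKM and Emcn at 33.9 and 16.6 RPKM. Col1a1 and Lepr were at the offset, and Cdh5, Kdr and Cxcl12 were under 1 RPKM in both groups. The part of other cell types in the members' differences was not tested.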

How the data were processed

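Smart-seq2 RNA was sequenced from 7 libraries of 150 HSCs as paired reads of 100 bp, per the labels' protocols. The deposited table gives RPKM in 2 columns, which the authors made with a single value of each group for a gene, per the file headers. The submitters' processing notes name mm10, Picard and edgeR without their roles; the aligner, the annotation and how libraries were averaged are not stated there or in the file header. The values allow no test, interval or count of reads in a library, so differences are log2((mutant + 1) / (control + 1)) with a 2-fold rule of size. A gene was taken as without reads when its ratio equalled the commonest one. All 10 members, other family genes with at least 1 RPKM in a group, and the highest and lowest member of each other list with at least 1 RPKM are named, apart from an item that is not reported here. Members and lists were chosen with earlier results of these data known. Promoters and coordinates are from RefSeq (GRCm38.p6), transcripts from GENCODE M21; 22959 of 23038 gene identifiers were in RefSeq. Other pseudocounts, scalings, minimums and folds were tried. Computation used Python 3.11.15 with pandas 2.3.3.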

Additional observations from a re-analysis of the deposited data

How the results depend on the processing

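The count of 9 members higher in the mutant mean held with a pseudocount of 0.1 RPKM, with none, with columns scaled to equal sums or by the median ratio, and with a minimum of 1 RPKM, and their median log2 difference ran from 0.78 to 0.98. Members at least 2-fold higher numbered 3 after scaling by the median ratio, where Igtp fell to 0.99, 5 without a pseudocount and 6 at 1.5-fold. Of all 14539 genes with reads, 497 were 2-fold higher after that scaling. Without a pseudocount the share of all genes was 13.6%, and at 1.5-fold it was 13.0%. Over all family genes 18 were higher, which includes 18 more genes. Other IRG and GBP genes at least 2-fold higher numbered 1 after scaling by the median ratio, since Gbp5 fell to 0.99, and 5 at 1.5-fold. All genes at least 2-fold apart numbered 2855 with the pseudocount of 0.1 RPKM (1508 higher), 3655 without one (1981 higher) and 3399 at 1.5-fold (1883 higher), because low genes or smaller differences then pass. Medians of lists of mostly low genes moved: interferon genes to 1.03 and 1.71, macrophage markers to 1.70 and 2.70 and neutrophil markers to -1.78 and -1.89 with 0.1 RPKM and without a pseudocount. Neutrophil markers were at -1.48 and endothelial and stromal markers at 1.07 with the 1 RPKM minimum, and the latter at 1.13 without a pseudocount. Of 265 values of named genes under these settings 14 moved by over 1.5 times and none changed sign. Leaving out Gbp6 was added after seeing the data and left 8 members higher. No paired analysis was possible because each column pools its group and carries no replicate number, and leaving out replicates was not run for the same reason.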

Other observations

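Genes that act with IRG and GBP proteins at the vacuole were described by list, where 47.4% of all genes with reads had the lower value in mutants. Among the 10 inflammasome genes that had reads, 9 had the lower value in the mutant mean, none by 2-fold, and they had a median log2 difference of -0.13. Il18, a cytokine matured by caspase-1, was lowest at 55.8 RPKM in control HSCs and 34.8 RPKM in mutant HSCs, and the adaptor gene Pycard was the only higher one, at 67.4 and 82.8 RPKM. The ATG8 conjugation genes, which place IRG and GBP proteins on membranes, were lower in 7 of 11, and their median was -0.13. Gabarapl1 was at 86.6 and 46.1 RPKM and Map1lc3a at 15.8 and 24.6 RPKM.

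Ubiquitin ligases and adaptors of the pathway were lower in 6 of 10 (median -0.07) and ran from Optn at 6.05 and 4.80 RPKM to Ubqln1 at 17.0 and 33.0 RPKM. Prenylation genes, whose products anchor some GBPs in membranes, were higher in 5 of 7 (median 0.32). The CAAX protease gene Rce1 was at 69.3 and 120 RPKM and Fnta, a subunit of the prenyltransferases, at 221 and 183 RPKM.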
